A study of Rattus norvegicus with 18 samples.

Results

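The 10 genes described here encode the core of the endoplasmic reticulum (ER) stress response, and they were followed in lung RNA-seq data from 18 rats. They were *Hspa5*, *Hsp90b1*, *Ddit3*, *Atf4*, *Xbp1*, *Dnajb9*, *Pdia4*, *Calr*, *Herpud1*, and *Sdf2l1*. They were chosen by name, and each of the 10 names matched 1 of the 22081 genes in the deposited tables. The rats were male F344/DuCrlCrlj animals. From 9 weeks of age, the MWCNT-treated rats received MWNT-7, a multiwalled carbon nanotube with straight and rigid fibers, by intratracheal instillation at 0.5 mg/kg once every 4 weeks. The control rats received the vehicle, saline with Tween 80, on the same schedule, so both groups shared repeated anesthesia and instillation. The lungs were taken at Years 0.5, 1, and 2, with 3 rats for each treatment and year. Every rat was a separate animal and is named by its replicate number within its group. The RNA came from pieces of the accessory lobe without a visible tumor, so it was a mixture of all cells in the lung. In such tissue, a change in the number of cells of a type and a change in RNA per cell cannot be told apart.

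The ER is where secreted and membrane proteins are folded. When unfolded proteins accumulate there, the sensors ATF6, IRE1, and PERK start the unfolded protein response. ATF6 is cut to release a transcription factor, IRE1 splices the mRNA of *Xbp1* into the form that encodes its active factor, and PERK slows translation while that of ATF4 is favored. ATF6 and XBP1 induce chaperones and degradation factors, whereas ATF4 induces genes of amino acid supply and, through *Ddit3* (CHOP), genes linked to cell death. In the lung, cells with a heavy secretory load, such as alveolar type 2 cells making surfactant and plasma cells making antibodies, depend on this machinery. Counts per gene do not show the splicing of *Xbp1* or the translation of *Atf4*.

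The promoters of the members were read first, because a promoter element shared by chaperone genes is the best-known link between them. The ER stress response element consists of CCAAT and CCACG separated by 9 bases, and it is bound by NF-Y together with ATF6. It was searched on both strands in 33469 RefSeq promoter windows of the rat build GRCr8, each reaching from 250 bases before a gene start to 50 bases after it. All 10 genes had a window. The element was present in 22 of all windows (0.0657%), and 4 of these were windows of *Hspa5*, *Hsp90b1*, *Xbp1*, and *Calr*. The 11-base ER stress response element II, ATTGG and CCACG separated by 1 base, was present in 17 windows (0.0508%), among them that of *Herpud1*. The 250 bases before the start are shown 5′ to 3′ on the strand of the gene for these 5 genes, because they hold the elements, with the elements in capitals:
*Hspa5*, chr3:38452766-38453015, plus strand: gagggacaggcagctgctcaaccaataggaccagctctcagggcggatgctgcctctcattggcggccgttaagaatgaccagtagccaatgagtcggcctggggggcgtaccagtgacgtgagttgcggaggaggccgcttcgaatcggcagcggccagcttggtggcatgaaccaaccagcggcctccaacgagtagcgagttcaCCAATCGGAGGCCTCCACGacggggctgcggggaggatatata
*Hsp90b1*, chr7:23012294-23012543, minus strand: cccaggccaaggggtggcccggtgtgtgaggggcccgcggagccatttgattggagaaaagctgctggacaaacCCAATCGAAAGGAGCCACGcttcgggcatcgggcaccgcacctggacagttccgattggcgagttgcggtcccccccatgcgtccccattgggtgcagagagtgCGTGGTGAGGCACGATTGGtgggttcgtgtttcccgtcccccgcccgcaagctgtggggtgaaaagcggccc
*Xbp1*, chr14:84604373-84604622, plus strand: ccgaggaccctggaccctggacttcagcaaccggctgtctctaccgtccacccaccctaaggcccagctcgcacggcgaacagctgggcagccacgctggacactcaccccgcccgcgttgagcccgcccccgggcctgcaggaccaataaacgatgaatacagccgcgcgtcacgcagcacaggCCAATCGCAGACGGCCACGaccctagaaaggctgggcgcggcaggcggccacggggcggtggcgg
*Calr*, chr19:40213117-40213366, plus strand: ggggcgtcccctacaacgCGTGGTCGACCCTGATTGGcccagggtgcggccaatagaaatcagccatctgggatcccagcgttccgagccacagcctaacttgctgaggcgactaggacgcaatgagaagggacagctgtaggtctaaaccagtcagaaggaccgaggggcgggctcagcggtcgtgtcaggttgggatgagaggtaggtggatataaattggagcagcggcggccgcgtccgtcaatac
*Herpud1*, chr19:10614708-10614957, minus strand: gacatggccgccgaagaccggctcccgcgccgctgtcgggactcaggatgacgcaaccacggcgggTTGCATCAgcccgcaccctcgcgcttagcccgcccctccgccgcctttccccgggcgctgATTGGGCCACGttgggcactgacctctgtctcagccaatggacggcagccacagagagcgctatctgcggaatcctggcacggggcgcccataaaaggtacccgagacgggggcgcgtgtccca

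In *Hspa5*, the element lay at positions -43 to -25, counted from the gene start, and in *Xbp1* at -65 to -47. *Hsp90b1* held 2 elements, at -176 to -158 and, on the opposite strand, at -72 to -54. The element of *Calr* was on the opposite strand, at -232 to -214. *Herpud1* held element II at -124 to -114 and, on the opposite strand at -184 to -177, TGATGCAA, the composite element bound by C/EBP and ATF factors. TGATGCAA was present in 266 of all windows (0.795%). The core of the unfolded protein response element, TGACGTGG, was present in 199 of all windows (0.595%) and in 0 of the 10 members. Both ER stress response elements contain CCACG, and ATTGG is CCAAT read on the opposite strand, but no 2 matches overlapped in these 5 promoters. *Ddit3*, *Atf4*, *Dnajb9*, *Pdia4*, and *Sdf2l1* had none of the 4 motifs in these windows, which says only that these letters were not found there. Only exact matches were counted, so further elements that differ by a letter would be missed in any of the members. A match is a stretch of letters and not evidence of binding in these lungs.

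Levels are given as TPM, a measure per transcript length that adds up to the same total in every rat, so that genes can be compared with each other. Differences between groups were tested on the counts, scaled by the TMM method, and are given as log2 fold changes of MWCNT-treated over control rats with the standard error (SE). Total counts ranged from 13297643 to 21130757 per rat, and the members had between 226 counts, in *Sdf2l1*, and 20406 counts, in *Calr*. A gene was called changed at a false discovery rate (FDR) below 0.05 over all tested genes. The scale matters for small changes. Over all tested genes, the median log2 fold change was -0.02, 0.00, and -0.01 at Years 0.5, 1, and 2 with TMM scaling, but -0.15, -0.21, and -0.20 on the log2(TPM + 1) scale. Of all calls, 52.1%, 52.3%, and 51.2% were higher in treated rats with TMM scaling, and 35.1%, 33.2%, and 31.7% with library size only.

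*Sdf2l1*, *Calr*, *Hspa5*, and *Pdia4* were called higher in MWCNT-treated lungs at each time point, and *Hsp90b1*, *Dnajb9*, and *Herpud1* at Years 0.5 and 2. Of the transcription factor genes, *Xbp1* was called higher at Years 0.5 and 1, and *Ddit3* and *Atf4* were not called at any time point. At Year 0.5, 8 of the 10 members were higher and 0 were lower, when 20.2% of all tested genes were higher and 18.6% lower. At Year 1, 5 of the 10 were higher and 0 lower, beside 21.6% and 19.6% of all tested genes. At Year 2, 7 of the 10 were higher and 0 lower, beside 25.2% and 24% of all tested genes. The median log2 fold change of the members was 0.33, 0.24, and 0.61. With library size only, the counts of members higher were 4, 3, and 5, beside 15.2%, 15%, and 17% of all tested genes. On the log2(TPM + 1) scale they were 3, 2, and 5, beside 13.2%, 11.7%, and 14.8%, and 0 members were lower in each case. Leaving out control rat 1, control rat 2, or MWCNT-treated rat 2 left 5 calls at Year 0.5, and leaving out control rat 3 left 3 at Year 1. With the additional requirement of an absolute log2 fold change above 1, the criterion for differentially expressed genes (DEGs), *Sdf2l1* passed at all time points and *Hspa5* at Year 2. DEGs that were higher made up 6.07%, 6.13%, and 8.17% of the tested genes. On the TPM scale, all 3 treated rats lay above all 3 control rats in 4, 2, and 5 of the 10 members, beside 17%, 15%, and 18.1% of the tested genes.

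**Figure D1:**
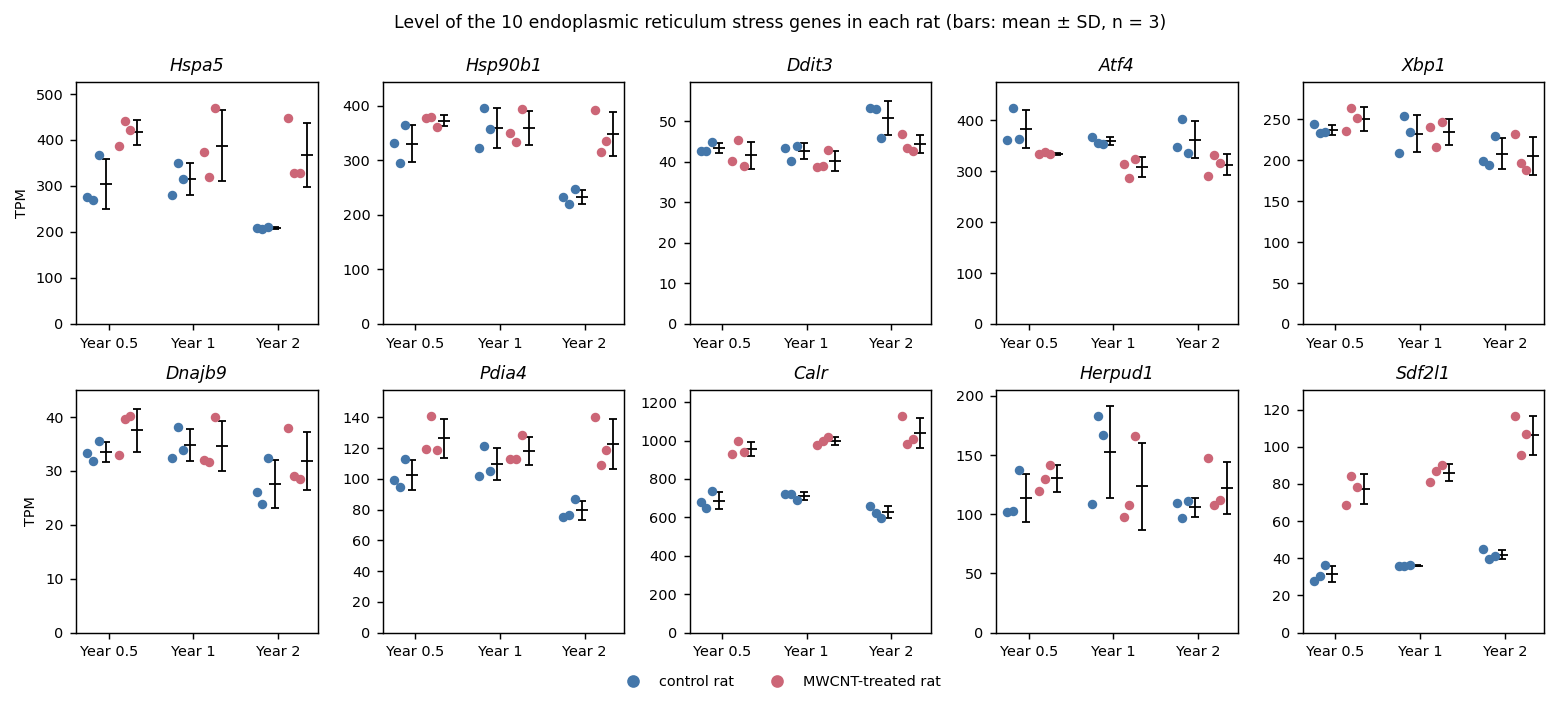
TPM (vertical axis, starting at 0) of the 10 genes in each of 18 rats by time point. Blue points are control rats, red points are MWCNT-treated rats, and bars are the mean ± SD of 3 rats. In *Sdf2l1* and *Calr* every treated rat lies above every control rat, whereas *Ddit3* stays between 38.7 and 53.4 TPM in all rats.

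*Sdf2l1* (ENSRNOG00000001859, chr11:88122271-88124513 on Rnor_6.0, the build of the counts) encodes a small ER protein that works with BiP and its DnaJ partners in holding misfolded proteins. Its TPM in the control rats was 27.9, 30.6, and 36.2 at Year 0.5, 36.0, 35.9, and 36.2 at Year 1, and 44.9, 39.7, and 41.4 at Year 2. The MWCNT-treated rats had 68.7, 84.5, and 78.2 at Year 0.5, 81.0, 87.0, and 90.0 at Year 1, and 116, 95.3, and 107 at Year 2. The lowest treated rat of any time point was above the highest control rat of any time point. It was the member with the largest change at each time point, with log2 fold changes of 1.44 (SE 0.119, FDR = 4.86e-05), 1.49 (SE 0.0888, FDR = 6.33e-06), and 1.55 (SE 0.111, FDR = 7.1e-06). These correspond to folds of 2.71, 2.81, and 2.93, and the call held under all scalings.

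*Calr* (ENSRNOG00000003029, chr19:25956771-25961666) encodes calreticulin, a calcium-binding lectin chaperone of glycoproteins. The control rats had 678, 648, and 737 TPM at Year 0.5, 722, 724, and 690 TPM at Year 1, and 658, 623, and 597 TPM at Year 2. The treated rats had 931, 996, and 941 TPM at Year 0.5, 978, 999, and 1017 TPM at Year 1, and 1126, 983, and 1010 TPM at Year 2. As in *Sdf2l1*, the 9 treated rats all lay above the 9 control rats. The log2 fold changes were 0.62 (SE 0.0713, FDR = 0.000257), 0.72 (SE 0.0784, FDR = 0.000169), and 0.95 (SE 0.0981, FDR = 5.91e-05), and the call held under all scalings.

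*Hspa5* (ENSRNOG00000018294, chr3:13838304-13842762) encodes BiP, the Hsp70 chaperone of the ER that also holds the stress sensors inactive. Its TPM in the control rats was 276, 270, and 367 at Year 0.5, 281, 351, and 315 at Year 1, and 209, 206, and 211 at Year 2. The treated rats had 387, 442, and 422 at Year 0.5, 373, 319, and 471 at Year 1, and 448, 327, and 328 at Year 2. The groups were apart at Years 0.5 and 2, and at Year 1 the lowest treated rat was below the highest control rat. The log2 fold change was 0.60 (SE 0.117, FDR = 0.00375) at Year 0.5, 0.53 (SE 0.124, FDR = 0.00895) at Year 1, and 1.04 (SE 0.135, FDR = 0.000235) at Year 2. On the log2(TPM + 1) scale, the Year 1 difference was 0.28 and was not called (FDR = 0.173 by limma).

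*Hsp90b1* (ENSRNOG00000026963, chr7:27226569-27240533) encodes GRP94, the Hsp90 chaperone of the ER, which folds integrins and Toll-like receptors. The control rats had 331, 296, and 364 TPM at Year 0.5, 323, 397, and 358 TPM at Year 1, and 232, 221, and 247 TPM at Year 2. The treated rats had 378, 378, and 361 TPM at Year 0.5, 349, 333, and 394 TPM at Year 1, and 392, 315, and 335 TPM at Year 2. The groups were apart only at Year 2, when the control rats were lowest. The log2 fold change was 0.32 (SE 0.0803, FDR = 0.013) at Year 0.5 and 0.79 (SE 0.107, FDR = 0.000282) at Year 2. At Year 1 it was 0.23 (SE 0.0893) and was not called (FDR = 0.0625). With library size only, the Year 0.5 call was lost (FDR = 0.0557).

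*Pdia4* (ENSRNOG00000006228, chr4:77470636-77489535) encodes a protein disulfide isomerase. Its TPM in the control rats was 99.4, 94.9, and 113 at Year 0.5, 102, 122, and 105 at Year 1, and 75.1, 76.6, and 86.8 at Year 2. The treated rats had 119, 141, and 119 at Year 0.5, 113, 113, and 129 at Year 1, and 141, 109, and 119 at Year 2. The groups were apart at Years 0.5 and 2 and overlapped at Year 1. The log2 fold changes were 0.45 (SE 0.0949, FDR = 0.00573), 0.35 (SE 0.0852, FDR = 0.0112), and 0.85 (SE 0.109, FDR = 0.000218). The Year 1 call was lost with library size only (FDR = 0.0713) and without control rat 3 (FDR = 0.0564), and on the log2(TPM + 1) scale the calls at Years 0.5 and 1 were lost (FDR = 0.0568 and 0.406).

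*Dnajb9* (ENSRNOG00000004006, chr6:64165913-64170151), *Herpud1* (ENSRNOG00000018796, chr19:11046909-11057254), and *Xbp1* (ENSRNOG00000010298, chr14:85753760-85758145) overlapped in TPM between treated and control rats at each time point. *Dnajb9* encodes ERdj4, a DnaJ partner of BiP that represses IRE1, and its TPM was 23.9 to 38.1 in the control rats and 28.5 to 40.1 in the treated rats. Its log2 fold change was 0.31 (SE 0.092, FDR = 0.0268) at Year 0.5, 0.22 (SE 0.102, FDR = 0.108) at Year 1, and 0.43 (SE 0.151, FDR = 0.04) at Year 2. *Herpud1* encodes a membrane protein that organizes the ubiquitin ligase complex of ER-associated degradation. Its TPM was 97.0 to 183 in the control rats and 97.9 to 166 in the treated rats, and it varied most within groups at Year 1. Its log2 fold change was 0.34 (SE 0.116, FDR = 0.047) at Year 0.5, -0.07 (SE 0.215, FDR = 0.819) at Year 1, and 0.43 (SE 0.135, FDR = 0.0263) at Year 2. *Xbp1*, whose TPM was 195 to 253 in the control rats and 188 to 264 in the treated rats, had log2 fold changes of 0.22 (SE 0.0665, FDR = 0.026), 0.25 (SE 0.0768, FDR = 0.03), and 0.20 (SE 0.105, FDR = 0.141). None of the calls of these 3 genes held with library size only, with FDR values from 0.101 to 0.271, and each was lost without at least 1 of the single rats.

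*Ddit3* (ENSRNOG00000006789, chr7:70580198-70585084) encodes CHOP. The control rats had 42.8, 42.7, and 44.9 TPM at Year 0.5, 43.5, 40.3, and 43.9 TPM at Year 1, and 53.4, 53.0, and 45.9 TPM at Year 2. The treated rats had 40.3, 45.5, and 39.0 TPM at Year 0.5, 38.7, 39.0, and 43.0 TPM at Year 1, and 46.9, 43.5, and 42.8 TPM at Year 2. The groups overlapped at each time point. The log2 fold changes were 0.09 (95% confidence interval -0.13 to 0.31), 0.15 (-0.07 to 0.37), and 0.02 (-0.22 to 0.26), with FDR values of 0.517, 0.232, and 0.89. The upper bounds were all below the log2 fold change of 0.60 of *Hspa5* at Year 0.5, whose own interval was 0.34 to 0.86. They were above the called changes of *Xbp1*, 0.22 at Year 0.5 and 0.25 at Year 1, so changes of that size are not excluded for *Ddit3*. *Ddit3* overlaps *Mars1* on the opposite strand, and the strand setting of the counting was not given in the sources used here, so reads of both genes may not be told apart.

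*Atf4* (ENSRNOG00000017801, chr7:121480723-121482772) had 361, 425, and 363 TPM in the control rats of Year 0.5, 367, 356, and 353 TPM at Year 1, and 348, 403, and 335 TPM at Year 2. The treated rats had 334, 337, and 333 TPM at Year 0.5, 315, 286, and 325 TPM at Year 1, and 291, 332, and 316 TPM at Year 2. At each time point the treated rats were below the control rats on the TPM scale, as were 40.7%, 46.8%, and 45.7% of all tested genes. With TMM scaling the log2 fold changes were -0.05 (95% confidence interval -0.23 to 0.13), 0.02 (-0.14 to 0.17), and 0.01 (-0.18 to 0.19), with FDR values of 0.637, 0.861, and 0.959. On the log2(TPM + 1) scale the differences at Years 1 and 2 were -0.22 and -0.21, close to the median of all genes on that scale.

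**Figure D2:**
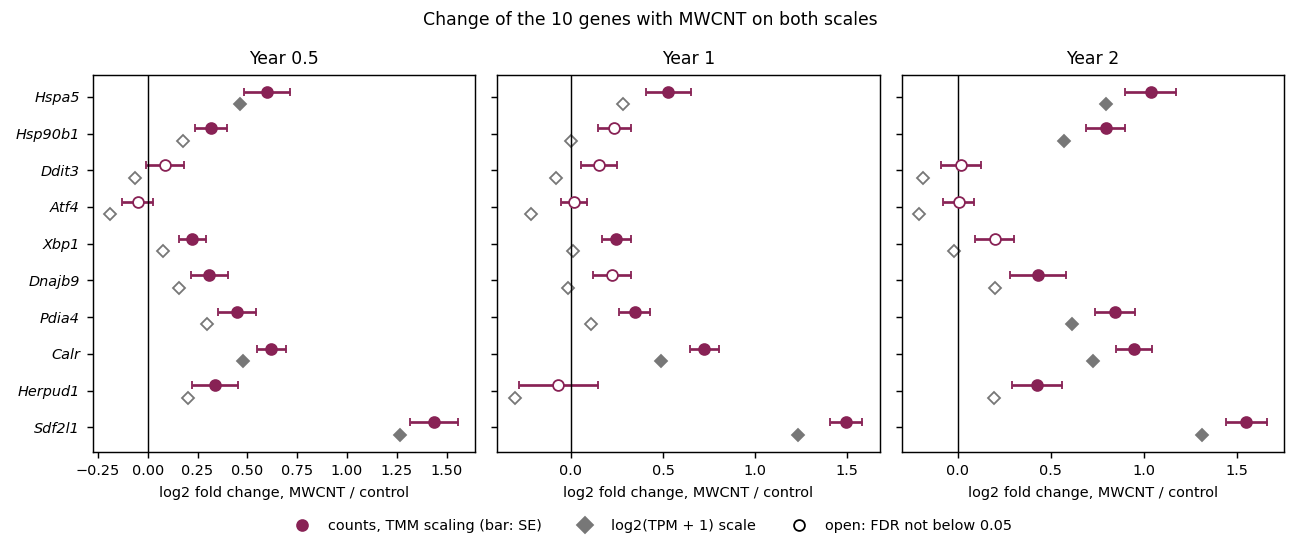
Log2 fold change of MWCNT-treated over control rats (horizontal axis) of the 10 genes at each time point, from 3 rats a group. Circles with SE bars are counts with TMM scaling, diamonds are the log2(TPM + 1) scale, and open symbols have an FDR of 0.05 or more. *Sdf2l1* lies farthest to the right at each time point, *Ddit3* and *Atf4* are open on both scales, and the diamonds lie to the left of the circles.

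The order of the 6 groups differed between members. In *Hspa5*, the mean TPM fell in the order MWCNT Year 0.5 (417 ± 27.6, SD, n = 3), MWCNT Year 1 (388 ± 76.7), MWCNT Year 2 (368 ± 69.7), control Year 1 (316 ± 35.1), control Year 0.5 (304 ± 54.4), and control Year 2 (209 ± 2.13). Of these neighbors, only the control groups of Years 0.5 and 2 were farther apart than the larger of their SDs. In *Calr* the order was MWCNT Year 2 (1040 ± 76.5), MWCNT Year 1 (998 ± 19.2), MWCNT Year 0.5 (956 ± 34.9), control Year 1 (712 ± 19.1), control Year 0.5 (687 ± 45.4), and control Year 2 (626 ± 30.9), and MWCNT Years 2 and 1 and control Years 1 and 0.5 were within their SDs. In *Sdf2l1* the order was MWCNT Year 2 (106 ± 10.5), MWCNT Year 1 (86.0 ± 4.57), MWCNT Year 0.5 (77.2 ± 7.94), control Year 2 (42.0 ± 2.65), control Year 1 (36.0 ± 0.141), and control Year 0.5 (31.6 ± 4.24), with each gap above the larger SD. The order of these 3 genes was the same when computed from counts per library scaled by TMM (CPM).

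The remaining members were ordered less clearly. In *Hsp90b1* and *Pdia4* the neighbors were within their SDs down to control Year 0.5, and control Year 2 stood below all others, at 233 and 79.5 TPM. In *Dnajb9* and *Herpud1*, no 2 neighbors were farther apart than the larger SD, and their means ranged from 27.5 to 37.6 TPM and from 106 to 153 TPM. The means of *Xbp1* ranged from 205 TPM in MWCNT Year 2 to 250 TPM in MWCNT Year 0.5, and a gap above the SD lay only between control Year 1 and control Year 2. In *Atf4*, the 3 control groups, from 359 to 383 TPM, were above the 3 treated groups, from 309 to 335 TPM. *Ddit3* was highest in control Year 2 (50.8 ± 4.23), and the other 5 groups, from 40.2 to 44.4 TPM, followed each other within their SDs. For *Ddit3*, *Atf4*, *Xbp1*, *Hsp90b1*, *Dnajb9*, *Pdia4*, and *Herpud1*, the order changed in part in TMM-scaled CPM. There, the 3 treated groups of *Xbp1*, *Hsp90b1*, *Dnajb9*, and *Pdia4* were above the 3 control groups.

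The effect of time was tested in one model of all 18 rats. In the control rats, *Hspa5* and *Hsp90b1* were lower at Year 2 than at Year 0.5, by log2 changes of -0.54 (SE 0.145, FDR = 0.0368) and -0.49 (SE 0.0973, FDR = 0.00867), while *Sdf2l1* was higher by 0.42 (SE 0.117, FDR = 0.0395). Thus 3 of the 10 members were called, beside 6.65% of all tested genes. From Year 1 to Year 2, *Hspa5*, *Hsp90b1*, and *Pdia4* were lower in the control rats, by -0.57 (FDR = 0.0274), -0.60 (FDR = 0.00495), and -0.44 (FDR = 0.023), beside 7.93% of all tested genes called. These calls depended on few rats. The library name of control rat 1 of Year 2 carries a suffix unlike that of the other libraries, and its meaning is not given in the sources used here. Without control rat 2 of Year 2, 0 members were called for Year 2 against Year 0.5, and 1 member was called without control rat 1 of Year 0.5 or control rat 1 of Year 2. For Year 2 against Year 1, 1 member was called without control rat 2 or 3 of Year 1, or control rat 1 or 2 of Year 2.

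In the MWCNT-treated rats, only *Sdf2l1* was called, and it was higher at Year 2 than at Year 0.5 by 0.54 (SE 0.107, FDR = 0.00298), beside 13.5% of all tested genes called. Without MWCNT-treated rat 1 of Year 2, 2 members were called. For Year 2 against Year 1, 0 members were called by edgeR and 0 by DESeq2, with 1 at an unadjusted p below 0.05. Of all tested genes, 5.94% were called and 20.3% had an unadjusted p below 0.05. For Year 1 against Year 0.5, 0 members were called by either tool and 0 had an unadjusted p below 0.05 in either treatment, beside 0% of all tested genes called in the control rats and 0.101% in the treated rats. The shares of all tested genes at an unadjusted p below 0.05 were 7.01% and 9.24%.

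The log2 fold changes of all chaperone genes among the members were highest at Year 2, but the interaction of treatment and time was called by edgeR for 0 of the 10 members. The closest were those of *Hsp90b1*, 0.57 (SE 0.137, FDR = 0.0605) for Year 2 against Year 1 and 0.48 (SE 0.137, FDR = 0.0959) for Year 2 against Year 0.5. The interaction of *Pdia4* for Year 2 against Year 1 was 0.51 (SE 0.15, FDR = 0.106). At an unadjusted p below 0.05, 4 members were counted for Year 2 against Year 0.5, 3 for Year 2 against Year 1, and 0 for Year 1 against Year 0.5. DESeq2 called 1 member for Year 2 against Year 0.5, *Hsp90b1*, and 2 for Year 2 against Year 1, *Hsp90b1* and *Pdia4*. Without control rat 1 of Year 1 or control rat 3 of Year 2, 1 member was called by edgeR for Year 2 against Year 1. Of all tested genes, edgeR called 1.31%, 0.478%, and 0% for these 3 interactions, and 13.8%, 16.5%, and 8.49% had an unadjusted p below 0.05 by edgeR. The shares of all tested genes called by DESeq2 are not given here, so its calls cannot be set against them.

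**Figure D3:**
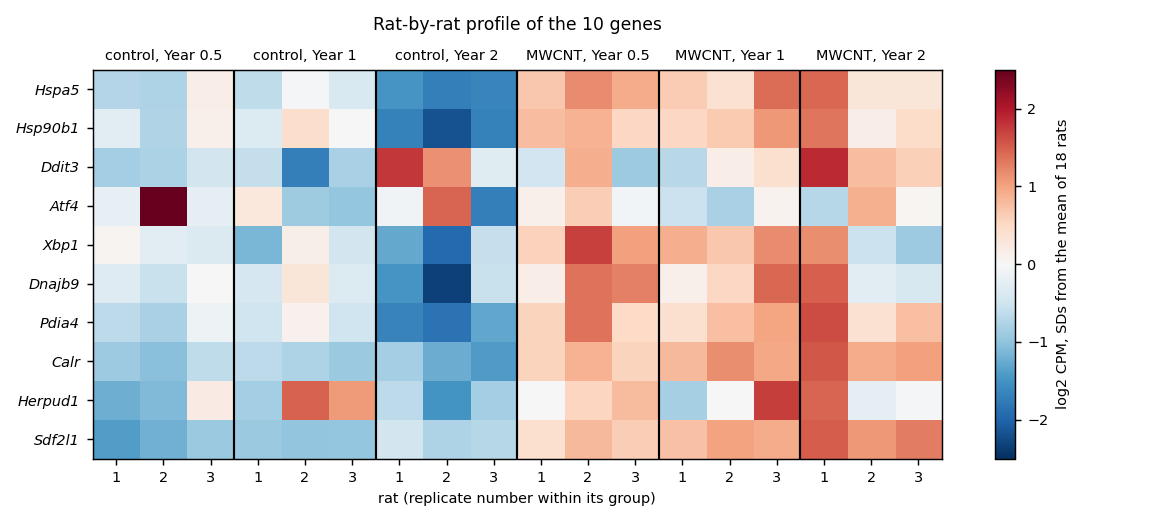
TMM-scaled log2 CPM of the 10 genes (rows) in 18 rats (columns, numbered within their group), in SDs from the mean of all rats for each gene, from blue (low) to red (high). *Hspa5*, *Hsp90b1*, *Pdia4*, and *Calr* are lowest on average in the control rats of Year 2, and rat 3 of MWCNT Year 1 and rat 1 of MWCNT Year 2 are red in most rows.

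Within groups, the rat highest in *Hspa5* was often also the highest in other members, whether or not these encode chaperones. The rat with the highest TPM of *Hspa5* in its group was also the highest in *Hsp90b1* and *Pdia4* in 6 of 6 groups, in *Xbp1*, *Dnajb9*, *Calr*, and *Herpud1* in 5, in *Ddit3* and *Sdf2l1* in 4, and in *Atf4* in 2. Rat 3 of MWCNT Year 1 was the highest of its group in 10 of 10 members, and rat 1 of MWCNT Year 2 in 9 of 10. These counts are descriptive, because all genes of a rat come from the same library. The share of all genes highest in the same rat was not computed, so the counts cannot be set against it. Rat 1 of MWCNT Year 2 also had the highest summed TPM of 10 plasma cell markers, 2211, whereas the other treated rats had 773 to 1162. *Jchain* alone made up as much as 73.9% of this sum in a rat. The other 9 markers summed to only 471 to 577 TPM over all treated rats. Without rat 1 of MWCNT Year 2, the Year 2 log2 fold change of *Hspa5* was 0.85, which was called but not a DEG. The calls of *Dnajb9* (0.27, FDR = 0.152) and *Herpud1* (0.25, FDR = 0.067) at Year 2 were lost without it, so that 5 of the 10 members were called.

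The genes most similar in profile to *Hspa5* over the 18 rats were searched among 6077 genes. These left out the 10 members and also all genes of the lists of ER function and cell type markers counted below. The smallest root mean square differences of scaled log2 CPM, 0.228, 0.294, and 0.303 SD, were those of *Hspd1*, which encodes the mitochondrial chaperone Hsp60, *Adam9*, a membrane metalloproteinase, and *Eprs*, a tRNA synthetase, when the median of all genes was 1.30 SD. For *Ddit3*, the closest of the searched genes were *Tax1bp3*, *Chmp4bl1*, and *Crb3*, at 0.539, 0.556, and 0.566 SD. These distances cannot be set against those of *Hspa5*, because every profile was scaled to the same SD. In a gene with few counts and little change, that scaling enlarges the scatter of counting. *Ddit3* had 274 to 462 counts in a rat, and *Hspa5* had 3684 to 12434.

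Other genes of the same machinery were then counted in lists of ER function. Among all tested genes, 20.2%, 21.6%, and 25.2% were higher and 18.6%, 19.6%, and 24% lower at Years 0.5, 1, and 2. With library size only, 15.2%, 15%, and 17% were higher, and 4020, 4316, and 5258 of 14315, 14345, and 14361 tested genes were lower. Of 22 further chaperones and folding enzymes, 16 were higher and 1 lower at each of the 3 time points, with median log2 fold changes of 0.37, 0.42, and 0.48. *Qsox1*, a sulfhydryl oxidase, had the smallest FDR at Year 2 and rose from 21.5 ± 2.47 to 63.9 ± 7.83 TPM (SD, n = 3, log2 fold change 1.79, FDR = 4.45e-06). *Erp29* rose from 152 ± 11.6 to 285 ± 7.90 TPM (1.13, FDR = 9.59e-06), and *P4hb*, the protein disulfide isomerase that is also a subunit of prolyl 4-hydroxylase, from 366 ± 8.84 to 631 ± 31.9 TPM (1.00, FDR = 1.93e-05). With library size only, 10, 11, and 12 of the 22 were higher and 1, 2, and 1 lower. In the promoter windows, the ER stress response element was found in 4 of 18 windows of this list, those of *Canx*, *Dnajc3*, *Creld2*, and *Ero1b*, and element II in those of *Hyou1* and *Dnajb11*.

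Of 15 genes of ER-associated degradation, 9, 6, and 10 were higher and 0, 1, and 0 lower at Years 0.5, 1, and 2. With library size only, 6, 2, and 8 were higher, beside 15.2%, 15%, and 17% of all tested genes, and 2, 1, and 2 were lower. *Edem1*, which directs misfolded glycoproteins to degradation, rose at Year 2 from 91.9 ± 10.2 to 135 ± 7.39 TPM (log2 fold change 0.77, FDR = 9.09e-05), and *Vcp*, the ATPase that extracts them from the membrane, from 198 ± 2.62 to 234 ± 9.65 TPM (0.46, FDR = 0.000811). *Edem3* had a log2 fold change of 0.59 (FDR = 0.000972). Of 14 genes of the translocon and signal peptide processing, 10, 11, and 13 were higher and 0 lower, and with library size only 7, 9, and 7 were higher and 1, 1, and 0 lower. At Year 2, *Sec61a1*, the channel itself, had a log2 fold change of 0.61 (FDR = 8.11e-05), *Spcs1*, a signal peptidase subunit, of 0.56 (FDR = 0.000228), and *Ssr1*, a translocon-associated protein, of 0.53 (FDR = 0.000419).

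Of 10 sensors and their activators, 2, 1, and 2 were higher and 1, 1, and 2 lower. The shares higher were 20%, 10%, and 20%, beside 20.2%, 21.6%, and 25.2% of all tested genes. *Atf6* had a log2 fold change of 0.52 at Year 2 (FDR = 0.000237), and of 0.24 and 0.10 at Years 0.5 and 1 (FDR = 0.0517 and 0.272). The interaction of treatment and time is not given here for this gene, so these values do not show a difference between time points. *Eif2s1*, the translation factor subunit phosphorylated by PERK, was higher at Year 2 (0.45, FDR = 0.00255), and *Creb3l2*, a transcription factor of secretory cells, was lower (-0.38, FDR = 0.00205). Of 18 targets of ATF4 and CHOP, 8, 10, and 8 were higher and 4, 3, and 5 lower. The shares higher were 44.4%, 55.6%, and 44.4%, and the median log2 fold changes of the list were 0.29, 0.44, and 0.11. Of the targets, 4, 5, and 6 were DEGs that were higher, beside 6.07%, 6.13%, and 8.17% of all tested genes, and 0 were DEGs that were lower. At Year 2, *Slc7a11*, the cystine transporter that is also a target of NRF2, rose from 0.398 ± 0.283 to 4.36 ± 0.844 TPM (log2 fold change 3.69, FDR = 4.5e-05), and *Nupr1*, a stress-inducible regulator, from 41.7 ± 7.01 to 81.5 ± 8.14 TPM (1.19, FDR = 0.000121). *Vldlr*, a lipoprotein receptor, fell from 27.1 ± 0.865 to 15.4 ± 1.41 TPM (-0.60, FDR = 0.000393). With library size only, 8, 9, and 7 of these targets were higher and 4, 5, and 8 lower, and 1, 0, and 2 of the sensors were higher and 2, 4, and 3 lower. The shares of all tested genes higher in that setting were 15.2%, 15%, and 17%.

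**Figure D4:**
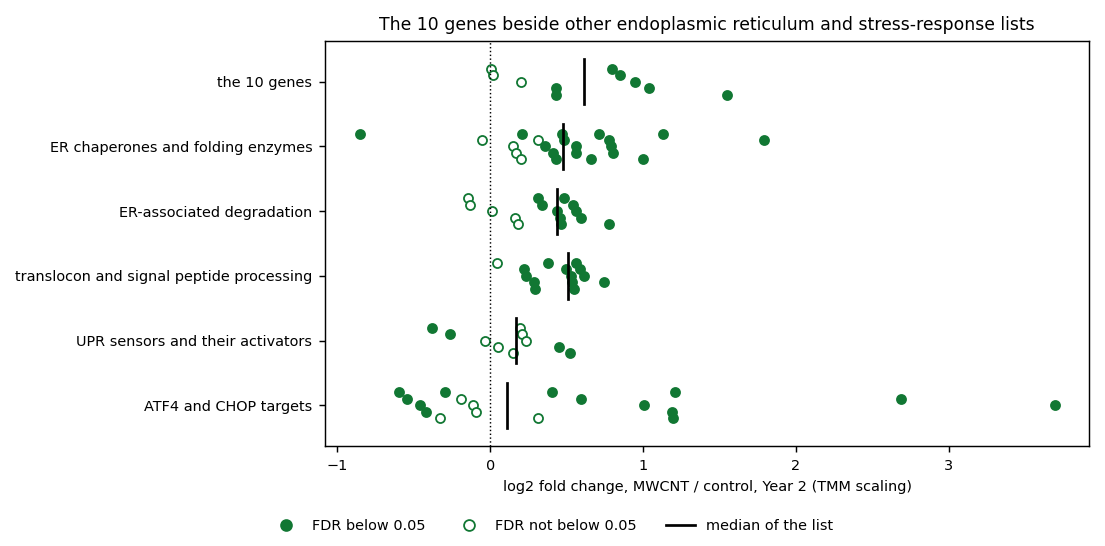
Log2 fold change of MWCNT-treated over control rats at Year 2 (horizontal axis, TMM scaling, 3 rats a group), with 1 point per gene in each list (vertical axis). Filled points have an FDR below 0.05, open points do not, and black lines mark list medians, which are 0.61 for the 10 genes, 0.48 for chaperones, 0.44 for ER-associated degradation, 0.51 for the translocon, 0.17 for sensors, and 0.11 for ATF4 and CHOP targets.

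RNA levels of marker genes of several cell types also differed between the treated and control rats. The markers of alveolar type 2, type 1, endothelial, and airway cells were all expressed, as the label of lung implies. Of 10 macrophage markers, 9, 9, and 10 were higher and 0, 1, and 0 lower, and their summed TPM was 24517 to 30685 in the control rats and 57012 to 67211 in the treated rats, with at most 1 marker at 0 in a rat. *Lyz2*, a lysozyme gene, made up 91.4% to 98% of this sum, and the other 9 markers summed to 519 to 744 TPM in the control rats and 2785 to 5409 TPM in the treated rats. Among them, *Cd68* had the smallest FDR at Year 2 (log2 fold change 3.03, FDR = 2.63e-07). Of 10 alveolar type 2 cell markers, 10, 8, and 9 were higher and 0 lower, and their sum was 28478 to 37717 TPM against 52493 to 62480 TPM, with *Sftpa1*, a surfactant protein gene, at a log2 fold change of 1.55 at Year 2 (FDR = 4.47e-06). Of the plasma cell markers, 10, 9, and 9 of which were tested, 6, 6, and 5 were higher and 1, 0, and 0 lower. Their sum was 537 to 943 TPM against 773 to 2211 TPM. *Jchain* made up 28.4% to 73.9% of this sum, and the other 9 markers summed to 384 to 435 TPM against 471 to 577 TPM. *Sdc1*, which epithelial cells also express, and *Fkbp11* had log2 fold changes of 0.72 and 0.46 at Year 2 (FDR = 7.37e-05 and 0.000329), and *Jchain* of 1.74 (FDR = 0.0321). *Mzb1*, *Pou2af1*, *Prdm1*, and *Cd79a* were not called at Year 2 (FDR = 0.164, 0.0565, 0.713, and 0.244). *Cd79a* was lower at Year 0.5 (log2 fold change -0.92, FDR = 0.00638).

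Other markers were lower in the treated rats. Of 7 type 1 cell markers, 7, 6, and 7 were lower and 0 higher, with sums of 5532 to 6503 TPM against 2565 to 4092 TPM. All 7 endothelial markers were lower at each time point, with sums of 2657 to 3409 TPM against 847 to 1811 TPM. Of 5 airway markers, 3, 4, and 3 were lower and 0 higher, and of 6 fibroblast markers, 2, 1, and 2 were higher and 3 lower at each time. The sum of 8 heart muscle markers was 73.0 to 670 TPM in the control rats and 15.6 to 203 TPM in the treated rats, with up to 3 of the 8 markers at 0 in a rat. Of the heart muscle markers, 6, 6, and 5 were tested at Years 0.5, 1, and 2, and 6, 1, and 1 were called lower and 0 higher. The part of these cell types in the changes of the 10 members was not tested.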

How the data were processed

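RNA-seq libraries of total RNA from 18 rat lungs were mapped by the authors with CLC Genomics Workbench 22.0.2 to the rat genome, and the submitters' processing notes name the builds Rnor_6.0 and rn6. The annotation release, the strand setting, and the treatment of multi-mapping reads were not given in the sources used here. The authors deposited raw counts per gene and TPM values, and both were used. The deposited CPM and RPKM values, and the authors' own fold changes and p-values, were not used. Samples were grouped by treatment and year from their titles.

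Counts were analyzed in R 4.3.3 with edgeR 4.0.16, using filterByExpr (minimum count 10, minimum total count 15), TMM factors, and the quasi-likelihood test with Benjamini-Hochberg adjustment over all tested genes. These were 14315, 14345, and 14361 genes at Years 0.5, 1, and 2, each fitted to 6 rats, and 14843 genes in the model of all 18 rats for time and interaction. All 10 members passed the filter. Profiles used log2 CPM with a prior count of 2, and the search for similar genes required a mean log2 CPM of at least 5. With 3 rats a group, precision is set by the spread between rats. Scripts were tested on simulated data. Promoter windows were searched with Python 3.11.15. Alternatives were other filters and scalings, DESeq2 1.42.0, the likelihood ratio test, limma 3.58.1 on log2(TPM + 1) and log2(TPM + 0.1), other thresholds, a replicate block, one model of all rats, and each rat left out in turn. The members and lists were chosen with earlier results of these data known. All members are described, and from every other list up to 3 genes with the smallest FDR at Year 2 are named with counts for the rest. Of the listed symbols, 7 matched no gene name and were not analysed here. *Jchain*, *Lyz2*, the plasma cell markers not called at Year 2, and the genes with promoter motifs were named after their values were seen.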

Additional observations from a re-analysis of the deposited data

How the results depend on the processing

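All calls of treatment effects were in the higher direction under every alternative run. Against 8, 5, and 7 members called at Years 0.5, 1, and 2, library size only gave 4 and 3 at Years 0.5 and 1, limma with the TPM, at either pseudocount (1 or 0.1), gave 3 and 2, an FDR below 0.01 gave 4 and 3, and the DEG criterion gave 1, 1, and 2. One model of all rats gave 5 at Year 0.5, when it called 5757 of 14843 tested genes in either direction. The cause was not tested, except that stricter criteria call fewer genes by construction. Leaving out each rat in turn gave 5 to 8, 3 to 5, and 5 to 7 members. The shares of all tested genes called at an FDR below 0.01, with a replicate block, or with a rat left out are not given here. The member counts of these settings therefore cannot be set against all genes. For time, an FDR below 0.01 left 1 of 3 members in each control comparison with Year 2. Leaving out each rat gave 0 to 4 for control Year 2 against Year 0.5, 1 to 4 for control Year 2 against Year 1, 1 to 2 for MWCNT Year 2 against Year 0.5, and 0 to 1 for the interaction of Year 2 against Year 1. DESeq2 called 1 and 2 members in the interactions of Year 2 with Year 0.5 and Year 1, for which its share over all tested genes is not given.

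The replicate numbers recur between groups but name separate animals. Deviations of same-numbered rats correlated at -0.147 to 0.107 over 9 pairs (mean 0.007), so the numbers did not pair the rats. With the number as a replicate block, 7, 5, and 7 members were called at the 3 time points (*Xbp1* at Year 0.5 had an FDR of 0.0502), and 0 for control Year 2 against Year 0.5, control Year 2 against Year 1, and MWCNT Year 2 against Year 0.5.

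Log2 fold changes that turned their sign were not called in either setting. With library size only they were -0.0189 for *Ddit3* at Year 0.5, -0.117 for *Atf4* at Year 1, and -0.151 and -0.164 for *Ddit3* and *Atf4* at Year 2. With upper quartile normalization they were -0.0196 for *Atf4* at Year 1 and -0.0329 and -0.0469 for *Ddit3* and *Atf4* at Year 2. On the log2(TPM + 1) scale *Ddit3* had -0.0636, -0.0822, and -0.187 at the 3 time points, *Atf4* -0.218 and -0.206 at Years 1 and 2, *Dnajb9* -0.0159 at Year 1, and *Xbp1* -0.0196 at Year 2. On the log2(TPM + 0.1) scale these were -0.065, -0.084, -0.191, -0.219, -0.207, -0.0164, and -0.0197. Leaving out each rat gave -0.0929 to 0.0362, -0.00715 to 0.0519, and -0.0585 to 0.075 for *Atf4* at the 3 time points, -0.315 to 0.0833 for *Herpud1* at Year 1, and -0.0595 to 0.0889 for *Ddit3* at Year 2.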
